A study of Homo sapiens with 12 samples.

Results

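OCI-AML3 and KG-1a are human acute myeloid leukaemia cell lines, and they were compared here through 3 libraries each, which are 6 of the 12 libraries of the series. The members were chosen by their cell line label. Each line had 1 library from cells given DMSO as the vehicle control, 1 from cells given 10 µM pioglitazone and 1 from cells given 10 µM darglitazone, all for 12 h. Both drugs are thiazolidinediones. The other 6 libraries came from MOLM-14 and MV4-11 under the same treatments. They entered the low-count filter, the scaling, the treatment term and the estimate of spread of the fit. Some of the genes tested therefore passed the filter only with those lines included. As background, OCI-AML3 is widely used as a model of NPM1-mutated leukaemia, KG-1a is an immature subline of KG-1 that carries a fusion of FGFR1OP2 with FGFR1, and neither is known for a KMT2A fusion. The labels state none of these lesions. Each line stands for 1 leukaemia, and the labels name no replicate culture. The p-values for the lines therefore measure only the spread left between the 12 libraries after terms for line and treatment. They do not measure the spread between replicate cultures.

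Blood cells lose the surface protein CD34 as they leave the stem and progenitor stage, and myeloid precursors then fill their granules with proteases and lysozyme. Acute myeloid leukaemia cells are held at points along this path, and some of them carry genes of other blood lineages at the same time. Antigen-presenting cells build MHC class II molecules from genes that the coactivator CIITA switches on, and p53 answers DNA damage by switching on cell cycle and death genes such as CDKN1A and BBC3.

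Of 15424 genes tested, 4090 (26.5%) were higher in OCI-AML3 and 3861 (25%) were higher in KG-1a at an adjusted p under 0.05 (edgeR's quasi-likelihood test, Benjamini-Hochberg adjustment). These shares are the background for all list counts below. At least a 2-fold difference was also required in a second count, which gave 2639 genes (17.1%) higher in OCI-AML3 and 2640 (17.1%) higher in KG-1a. The 3 libraries of OCI-AML3 lay above all 3 of KG-1a for 3988 genes (25.9%), and KG-1a lay above OCI-AML3 for 4144 (26.9%). The median log2 difference over all genes, OCI-AML3 minus KG-1a, was 0.018, and the median size regardless of sign was 0.822. Levels below are CPM, counts per 1e6 counts of a library after TMM scaling, in the order DMSO, pioglitazone, darglitazone. They are not divided by gene length, so each is compared only between libraries.

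Total estimated counts ran from 1.1 M (M is 1e6) in the OCI-AML3 pioglitazone library to 64.24 M in OCI-AML3 DMSO, and from 4.77 to 13.11 M in KG-1a. A count of 3, the level below which a gene is taken as not detected here, was worth 2.738 CPM in the shallowest library and 0.047 to 0.629 CPM in the other 5. FP671120.3, a noncoding entry, took 23.535% of the counts in KG-1a pioglitazone and 6.174% in OCI-AML3 pioglitazone, against at most 0.319% in the other 4 libraries. Genes specific to another line were read in small amounts. In OCI-AML3 pioglitazone 67 genes specific to KG-1a had a median level of 2.099% of that in KG-1a, against 0.116% with DMSO and 0.13% with darglitazone. In KG-1a darglitazone 6 genes specific to MV4-11 had a median of 3.944% of the MV4-11 level, against 0.695% with DMSO and 0.08% with pioglitazone. In KG-1a 12 genes specific to OCI-AML3 stood at 0.143%, 0.056% and 0.531% of the OCI-AML3 level with DMSO, pioglitazone and darglitazone, and 8 specific to MOLM-14 at 0.295%, 0.172% and 0.947% of theirs. All of these genes were picked for being nearly absent in the receiving line. Both lines expressed PTPRC, which marks leukocytes, and the myeloid genes SPI1 and CD33, whose summed level ran from 466.7 to 648.7 CPM in OCI-AML3 and from 642 to 697.9 CPM in KG-1a. In these bulk cultures fewer cells of a type and less RNA per cell cannot be told apart.

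ORM1, CA2 and ITGA6 were picked to mark the pair with earlier results of these data known. ORM1 (chr9:114323056-114326475, plus strand, GRCh38), which encodes the plasma carrier protein orosomucoid 1, stood at 1253, 1074 and 742 CPM in OCI-AML3 and at 1.81, 0.101 and 5.23 CPM in KG-1a. Every OCI-AML3 library was far above every KG-1a library, and KG-1a was lowest with pioglitazone and highest with darglitazone, the order of the shares of OCI-AML3 genes in those libraries (0.056%, 0.143% with DMSO and 0.531%). ORM1 meets the rule for those genes itself, and the part of such reads in its KG-1a values was not tested. The log2 difference was 9.20 ± 1.24 (SE, n = 3 per line, adjusted p = 0.000959). ORM2, the neighbouring gene (chr9:114329869-114333252), shares 50.2% of its 711 transcript stretches of 50 bases with ORM1, so the split of reads between them is uncertain. It stood at 26.3, 6.14 and 17.1 CPM in OCI-AML3 and at 0 in all 3 KG-1a libraries, at least 187-fold higher.

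CA2 (chr8:85463852-85481493, plus strand) encodes a cytosolic carbonic anhydrase, an enzyme that interconverts carbon dioxide and bicarbonate. It stood at 494, 589.6 and 650.5 CPM in OCI-AML3 and at 22.3, 11.3 and 21.4 CPM in KG-1a, a log2 difference of 5.10 ± 0.84 (SE, adjusted p = 0.0023). CA8 (chr8:60187347-60281412), a relative without enzyme activity, ran the other way. It stood at 35.8, 37.5 and 40.2 CPM in KG-1a and at 0.0149, 0.877 and 0 CPM in OCI-AML3. CA13 was also higher in KG-1a, at 12.7, 7.96 and 7.54 CPM against 2.11, 4.39 and 1.47 CPM, though its call was lost without the DMSO or the darglitazone library of OCI-AML3 (adjusted p = 0.0883 and 0.115) or the DMSO library of KG-1a (adjusted p = 0.199). Of 7 carbonic anhydrases tested, 3 were higher in OCI-AML3 and 2 in KG-1a.

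ITGA6 (chr2:172427354-172506282, plus strand) encodes integrin alpha 6, a laminin receptor chain found on stem cells of several tissues. It stood at 244, 245 and 213 CPM in KG-1a and at 0.389, 7.90 and 5.94 CPM in OCI-AML3, a log2 difference of -6.59 ± 0.90 (SE, adjusted p = 0.000874). The KG-1a libraries lay close together, while the OCI-AML3 libraries spread widely with DMSO lowest. On the 6 libraries alone the log2 difference was -6.58 with an adjusted p of 0.0824.

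KG-1a carried the stem and progenitor programme. Of 22 tested genes of that list, 17 were higher in KG-1a and 2 in OCI-AML3, with a median log2 difference of -3.93. CD34, the classical marker of blood stem and progenitor cells, stood at 715, 599 and 649 CPM in KG-1a. In OCI-AML3 it stood at 0.0747 CPM with DMSO, 7.90 with pioglitazone and 0.19 with darglitazone. The raised value was in the shallow library that held reads of KG-1a, and it was far under every KG-1a value; the part of those reads in it was not tested. The log2 difference was -11.31 ± 1.21 (SE, adjusted p = 0.000273), and on the 6 libraries alone it was -10.96 with an adjusted p of 0.0623. ERG, an ETS factor of stem cells, stood at 109, 133 and 121 CPM in KG-1a and at 0.0299, 0.877 and 0 CPM in OCI-AML3. MSI2, an RNA-binding protein of stem cells, stood at 158, 128 and 138 CPM against 0.418, 7.90 and 0.142 CPM. NYNRIN stood at 198, 224 and 178 CPM against 0.0897, 3.51 and 0.333 CPM. GATA2, a stem cell transcription factor, was present in both lines but higher in KG-1a, at 494, 443 and 530.3 CPM against 21.6, 36.0 and 86.8 CPM. FLT3 and SOCS2 were the 2 genes of the list higher in OCI-AML3. FLT3, a cytokine receptor kinase often mutated in this leukaemia, stood at 148, 151 and 114 CPM in OCI-AML3 and at 4.07, 0.604 and 16.8 CPM in KG-1a. On the 6 libraries alone its log2 difference was 4.84 with an edgeR adjusted p of 0.113. In MV4-11 FLT3 stood at 323, 521 and 410 CPM. Genes specific to MV4-11 had medians of 0.695%, 0.08% and 3.944% of their level in the KG-1a libraries. The part of such reads in the KG-1a values of FLT3 was not tested. MYB and LMO2 did not pass the test, with log2 differences of 0.27 and -0.23. PROM1 and THY1 were at 0.101 CPM or less in all 6 libraries, so not every marker of immature cells was present in KG-1a.

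Granule and monocyte genes were more often higher in OCI-AML3 than in KG-1a. Of 16 primary granule genes, 11 were higher in OCI-AML3 and 2 in KG-1a, with a median log2 difference of 3.04. AZU1, which encodes the antimicrobial protein azurocidin, stood at 446, 322 and 392 CPM against 4.53, 0.202 and 13.4 CPM. On the 6 libraries alone its log2 difference was 6.59 with an edgeR adjusted p of 0.0688. CTSG, the protease cathepsin G, stood at 418, 293 and 308 CPM against 6.11, 2.52 and 14.0 CPM. RNASE2, a ribonuclease of granules, stood at 168, 96.5 and 79.0 CPM against 1.36, 0.504 and 3.56 CPM. MPO, the peroxidase that defines the primary granule, was low in both lines, at 9.01, 6.14 and 6.03 CPM against 3.51, 1.41 and 2.09 CPM (log2 difference 1.65 ± 0.35, SE, adjusted p = 0.00104). ELANE and PRTN3, elastase and proteinase 3, did not pass the test (adjusted p = 0.0608 and 0.0696 by edgeR): ELANE stood at 24.9, 11.4 and 11.9 CPM in OCI-AML3 and at 2.26, 0.101 and 9.42 CPM in KG-1a. PRSS57 and CST7 went the other way. CST7, the protease inhibitor cystatin F, stood at 74.6, 104 and 72.2 CPM in KG-1a and at 1.44, 7.02 and 1.19 CPM in OCI-AML3.

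Of the 11 primary granule genes higher in OCI-AML3, 8 (72.7%) had their highest KG-1a level in the darglitazone library, as did 11 of the 16 monocyte genes (68.8%) and 3 of the 9 secondary granule genes (33.3%), against 34.7% of all genes higher in OCI-AML3. Genes specific to each of the other 3 lines also stood highest in that KG-1a library, and the part of those reads in these values was not tested. In KG-1a pioglitazone, where MV4-11 genes stood at 0.08%, AZU1 was at 0.202 CPM and ELANE at 0.101 CPM. The line differences of primary granule genes were smallest under darglitazone, where the list's median log2 ratio was 1.76, against 3.89 with DMSO and 4.55 with pioglitazone. The OCI-AML3 side moved too: 15 of the 16 genes (93.8%) had their highest OCI-AML3 level with DMSO, against 34.3% of all genes tested. The summed level of the list was 5293, 3261 and 3454 CPM in OCI-AML3 and 831.9, 665.3 and 877.7 CPM in KG-1a.

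Secondary granule and neutrophil genes were 9 of 12 higher in OCI-AML3 and 2 higher in KG-1a, with a median of 3.25, but the defining members LTF, CAMP, LCN2 and MMP8 were at 1.05 CPM or less in every library and were not tested. CEACAM6, an adhesion molecule of granulocytes, stood at 37.7, 22.8 and 27.7 CPM against 0, 0.101 and 0.419 CPM. CRISP3 was the member most in favour of KG-1a, at 6.68, 8.36 and 8.58 CPM against 0 in all OCI-AML3 libraries. It missed the threshold with DESeq2 (adjusted p = 0.0587).

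Monocyte and macrophage genes were 16 of 26 higher in OCI-AML3 and 8 higher in KG-1a, with a median of 3.04. Over all genes tested the shares were 26.5% and 25%. The summed level of the list was 1016, 797.6 and 1007 CPM in OCI-AML3 and 733.9, 500.7 and 641.9 CPM in KG-1a. Genes of this list were thus also expressed in KG-1a. CYBB, the catalytic subunit of the phagocyte oxidase, stood at 179, 168 and 294 CPM against 2.49, 3.22 and 3.98 CPM. MNDA, a nuclear protein of myeloid cells, stood at 83.1, 28.9 and 25.6 CPM against 0.113, 0 and 2.09 CPM. TLR2, a sensor of bacterial lipoproteins, stood at 52.5, 48.3 and 33.1 CPM against 0.226, 0.202 and 3.77 CPM. On the 6 libraries alone MNDA and TLR2 had log2 differences of 6.37 and 5.51, with edgeR adjusted p of 0.0579 and 0.055. CD14, the lipopolysaccharide coreceptor, was low even in OCI-AML3, at 1.61, 5.26 and 6.65 CPM, and was at 0 in KG-1a, so that it was at least 22.4-fold higher in OCI-AML3. FCN1 and VCAN, further markers of mature monocytes, were at 0.808 CPM or less in all 6 libraries. ITGAM, the CD11b integrin chain of mature myeloid cells, was instead higher in KG-1a, at 148, 77.8 and 113 CPM against 1.20, 3.51 and 3.47 CPM.

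**Figure D1:**
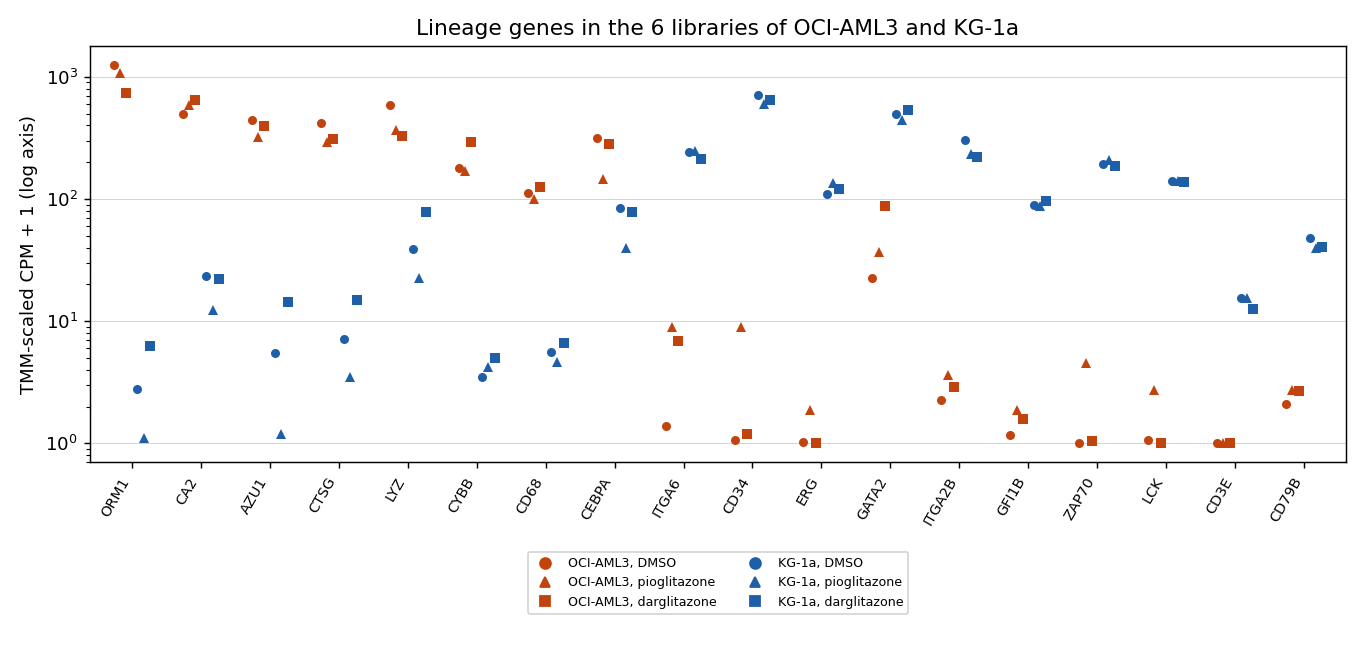
Levels of 18 lineage genes in the 6 libraries, as TMM-scaled CPM plus 1 on a log axis; each symbol is 1 library, orange for OCI-AML3 and blue for KG-1a, with circles for DMSO, triangles for pioglitazone and squares for darglitazone. ORM1 to CEBPA lie higher in OCI-AML3 and ITGA6 to CD79B higher in KG-1a, and the lines do not overlap for any of them. The genes were picked with results of these data known. Not drawn are, among others, MPO, low in both lines, ELANE and PRTN3, which did not pass the test, and ITGAM, a myeloid gene higher in KG-1a.

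Myeloid transcription factors were divided, 11 of 22 higher in OCI-AML3 and 8 in KG-1a, with a median of 0.63. Those higher in KG-1a were 4 without its DMSO library and 5 without its darglitazone library, and the median was 0.25 without OCI-AML3 darglitazone. CEBPA, the factor that commits progenitors to granulocytes and monocytes, stood at 318, 145 and 279 CPM in OCI-AML3 and at 84.1, 38.7 and 76.6 CPM in KG-1a. Both lines had it, and all OCI-AML3 libraries were above those of KG-1a (log2 difference 1.91 ± 0.22, SE, adjusted p = 1.24e-05). RUNX2 stood at 53.6, 65.8 and 57.5 CPM against 2.26, 1.51 and 2.72 CPM. KLF4 and BCL6 were also higher in OCI-AML3, with log2 differences of 5.74 ± 0.62 and 3.97 ± 0.72. NFE2, a factor of erythroid and megakaryocytic cells, stood at 90.5, 63.4 and 78.9 CPM in KG-1a against 5.05, 1.75 and 3.80 CPM.

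Genes of lymphoid and megakaryocytic lineages were found in KG-1a. Of 21 T and NK cell genes tested, 13 were higher in KG-1a and 3 in OCI-AML3, with a median of -5.62. ZAP70, the kinase of the T cell receptor, stood at 192, 207 and 187 CPM in KG-1a and at 0, 3.51 and 0.0475 CPM in OCI-AML3. LCK, the Src family kinase upstream of it, stood at 139, 141 and 137 CPM against 0.0747, 1.75 and 0 CPM. CD3E, a chain of the receptor complex, stood at 14.6, 14.4 and 11.5 CPM and was at 0 in OCI-AML3, at least 413-fold higher in KG-1a. GZMA, a granzyme of killer cells, was at least 554-fold higher in KG-1a. The programme was partial: CD8A, LEF1, BCL11B, GZMB and EOMES were at 0.504 CPM or less in all KG-1a libraries, and NCAM1, an NK cell marker, was higher in OCI-AML3 at 35.2, 30.7 and 41.4 CPM against 0.453, 0.101 and 0.838 CPM. The count higher in KG-1a was 13 again without the OCI-AML3 pioglitazone and KG-1a darglitazone libraries.

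Of 9 B cell genes tested, 5 were higher in KG-1a and 0 in OCI-AML3 by edgeR's test, with a median of -4.66. CD79B, a signalling chain of the B cell receptor, stood at 47.4, 38.4 and 39.1 CPM against 1.11, 1.75 and 1.66 CPM, and its partner CD79A at 18.1, 10.6 and 12.8 CPM against 0.120, 0 and 0 CPM. MS4A1 was at 0 in all 6 libraries, and PAX5, the B lineage factor, did not pass the test (log2 difference 0.43). Of 9 erythroid and megakaryocyte genes, 6 were higher in KG-1a and 1, CA2, in OCI-AML3. ITGA2B, the platelet integrin chain, stood at 304, 234 and 221 CPM against 1.28, 2.63 and 1.90 CPM. GFI1B, a repressor of those lineages, stood at 87.8, 86.1 and 95.9 CPM against 0.164, 0.877 and 0.570 CPM. HBA1 and PF4, which mark red cells and platelets, were at 0 in all 6 libraries.

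Stem cell HOX genes did not follow the other stem cell markers. Of 11 tested genes of the HOXA list, 6 were higher in OCI-AML3 and 3 in KG-1a, with a median of 1.89. Without OCI-AML3 darglitazone or KG-1a DMSO only 1 was higher in KG-1a, and on the 6 libraries alone, where 8 of the genes were tested, the median was 0.74. HOXA5 stood at 7.04, 11.4 and 6.13 CPM in OCI-AML3 and at 0, 0 and 0.209 CPM in KG-1a, and HOXA11 at 16.8, 7.90 and 14.5 CPM against 0.226, 0 and 0.209 CPM. HOXA9, the member most tied to leukaemic self-renewal, was expressed in both lines and higher in KG-1a, at 69.9, 66.6 and 52.5 CPM against 30.1, 43.9 and 35.1 CPM (log2 difference -0.83 ± 0.18, SE, adjusted p = 0.00111). MEIS1, its cofactor, overlapped between the lines, at 47.5, 39.8 and 50.5 CPM against 30.3, 44.8 and 27.6 CPM, and its call (adjusted p = 0.0299 by edgeR) was lost in 6 of the alternatives. PBX3, the other cofactor, was higher in OCI-AML3 (log2 difference 1.89 ± 0.18, SE). In the HOXB cluster HOXB2 stood at 11.4, 16.5 and 14.9 CPM in KG-1a and at 0, 0 and 0.0475 CPM in OCI-AML3, while HOXB3 to HOXB6 were at 0.419 CPM or less in all 6 libraries.

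MHC class II was the list with the lowest median of the lists with at least 9 tested genes. Of its 15 genes, 13 were higher in KG-1a and 0 in OCI-AML3 by edgeR's test, with a median log2 difference of -6.96. HLA-DRA stood at 715, 616 and 618 CPM in KG-1a and at 0.852, 15.8 and 0.950 CPM in OCI-AML3. As with CD34, the raised OCI-AML3 value was in the pioglitazone library, and 9 of the 13 genes higher in KG-1a (69.2%) had their highest OCI-AML3 value there, against 25.2% of all genes higher in KG-1a. The part of reads of KG-1a in these values was not tested. For HLA-DRA the log2 difference was -8.73 ± 0.90 (SE, adjusted p = 0.000201), and on the 6 libraries alone it was -8.47 with an adjusted p of 0.0596. HLA-DPB1 stood at 192, 148 and 176 CPM against 0.0747, 3.51 and 0 CPM. CIITA stood at 98.1, 81.5 and 107 CPM against 1.12, 1.75 and 2.09 CPM. RFX5, a subunit of the factor that binds the class II promoters, differed far less, at 154, 144 and 156 CPM against 102, 63.2 and 92.9 CPM, and RFXANK and RFXAP, the other subunits, did not pass the test. CD74, the invariant chain, was expressed in both lines, at 1418, 1061 and 1204 CPM in KG-1a against 239, 184 and 193 CPM.

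The upstream sequences of 3 class II genes are printed here because these genes moved together. All of them lie in a stretch of neighbouring genes that leaned to KG-1a (chr6:31670167-34696859, built as described for chromosomes below). It held 82 protein-coding genes with a median log2 difference of -0.71. Of these, 48 were higher in KG-1a and 2 in OCI-AML3, against 26.6% and 29% of all protein-coding genes tested. The part of this neighbourhood in the class II values was not tested. The letters are RefSeq's (GRCh38.p14), 200 bases that end at the base before the annotated start, and HLA-DRB1 is chr6:32589849-32590048, HLA-DMA chr6:32953098-32953297 and HLA-DMB chr6:32941029-32941228, all on the minus strand. Capitals mark CTGATGATG and ATTGG on either strand (ATTGG reads CCAAT on the other), which resemble parts of the X and Y boxes of class II promoters and do not overlap here.
HLA-DRB1: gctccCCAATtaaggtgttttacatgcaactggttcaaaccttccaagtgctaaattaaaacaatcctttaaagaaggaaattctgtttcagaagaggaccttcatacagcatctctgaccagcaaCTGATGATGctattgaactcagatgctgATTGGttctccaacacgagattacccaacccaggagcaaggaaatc
HLA-DMA: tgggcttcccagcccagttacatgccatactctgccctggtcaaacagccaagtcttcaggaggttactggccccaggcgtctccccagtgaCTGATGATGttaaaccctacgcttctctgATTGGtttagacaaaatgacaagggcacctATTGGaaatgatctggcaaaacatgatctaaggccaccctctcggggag
HLA-DMB: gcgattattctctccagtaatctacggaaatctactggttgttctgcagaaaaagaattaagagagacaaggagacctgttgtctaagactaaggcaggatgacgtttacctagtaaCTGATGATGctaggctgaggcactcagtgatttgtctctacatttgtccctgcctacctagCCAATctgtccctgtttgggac
The letters CTGATGATG were chosen after these sequences had been read. In the 250 bases before the start they were found in 4 of the 13 list genes that the promoter table holds (30.8%) and in 76 of all 27305 genes (0.28%). ATTGG was found in 10 of the 13 (76.9%) and in 37% of all genes. A match describes the letters and shows no binding. In HLA-DRB1 the levels beside this sequence were 492, 332 and 395 CPM in KG-1a and 1.31, 9.65 and 0.855 CPM in OCI-AML3, in HLA-DMA 89.6, 78.5 and 98.2 CPM against 0.508, 3.51 and 1.04 CPM, and in HLA-DMB 97.0, 68.5 and 79.3 CPM against 0.239, 2.63 and 0.570 CPM. HLA-DRB1 has close copies among the DRB genes, so its reads may be split.

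Antigen processing for MHC class I and the interferon-stimulated genes were also higher in KG-1a. Of 15 class I and antigen processing genes, 10 were higher in KG-1a and 2 in OCI-AML3, with a median of -0.92. TAP1, a chain of the peptide transporter, stood at 478, 349.9 and 474 CPM in KG-1a against 43.6, 35.1 and 39.6 CPM. Of 21 interferon-stimulated genes, 15 were higher in KG-1a and 1 in OCI-AML3, with a median of -2.55. RSAD2, which encodes the antiviral protein viperin, stood at 200.3, 183 and 201 CPM against 0.389, 5.26 and 0.760 CPM. IFIT3 stood at 54.2, 35.6 and 63.2 CPM against 0.568, 4.39 and 2.23 CPM. The list did not move as a whole: MX1, MX2, OAS3, IFI44 and XAF1 did not pass the test, with log2 differences from 0.20 to 0.77, and HERC5 was higher in OCI-AML3.

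The upstream sequences of 3 of the interferon-stimulated genes higher in KG-1a are given in the same way, from chr10:89392423-89392622 (IFIT1, plus strand), chr10:89327797-89327996 (IFIT3, plus strand) and chr1:27672193-27672392 (IFI6, minus strand). Capitals mark GAAA, any 2 letters and GAAA again, on either strand, the core of the element that interferon-activated complexes are known to bind.
IFIT1: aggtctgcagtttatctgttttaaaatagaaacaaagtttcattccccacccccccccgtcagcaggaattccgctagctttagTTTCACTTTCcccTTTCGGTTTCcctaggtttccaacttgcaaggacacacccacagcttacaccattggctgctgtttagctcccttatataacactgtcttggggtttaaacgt
IFIT3: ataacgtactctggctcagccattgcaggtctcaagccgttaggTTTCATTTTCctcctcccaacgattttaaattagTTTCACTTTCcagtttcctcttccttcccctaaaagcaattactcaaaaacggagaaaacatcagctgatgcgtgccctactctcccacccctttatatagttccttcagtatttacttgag
IFI6: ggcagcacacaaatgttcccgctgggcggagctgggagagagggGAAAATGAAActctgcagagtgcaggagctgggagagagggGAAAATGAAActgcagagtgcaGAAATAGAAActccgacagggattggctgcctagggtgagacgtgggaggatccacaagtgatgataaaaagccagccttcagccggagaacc
Of the 22 list genes 15 had an entry in the promoter table, and 12 of these 15 held the pattern in the 250 bases before the start (80%), against 3.71% of all 27305 genes. The 12 include MX1, OAS3 and IFI44, which did not pass the test, so the pattern was found in genes that passed it and in genes that did not. IFIT1 stood at 20.8, 16.8 and 17.2 CPM in KG-1a and at 0.284, 3.51 and 1.28 CPM in OCI-AML3, and IFI6 at 70.7, 37.7 and 63.4 CPM against 6.80, 7.02 and 9.31 CPM.

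Targets of p53 were higher in OCI-AML3. Of 26 genes of the list, 18 were higher in OCI-AML3 and 2, SESN1 and ZMAT3, in KG-1a, with a median of 1.42. CDKN1A, the p21 inhibitor of cyclin-dependent kinases, stood at 351, 297 and 674 CPM in OCI-AML3 and at 1.47, 0.403 and 6.49 CPM in KG-1a (log2 difference 7.58 ± 0.77, SE, adjusted p = 0.000164). MDM2, the ubiquitin ligase that restrains p53, was expressed in both lines, at 411, 313 and 330 CPM against 54.5, 60.4 and 42.7 CPM. BBC3, which encodes the death protein PUMA, stood at 30.6, 30.7 and 46.0 CPM against 0.453, 1.11 and 1.88 CPM. TNFRSF10B, a death receptor, stood at 126, 162 and 208 CPM against 4.75, 3.83 and 3.56 CPM, and PHLDA3, an inhibitor of AKT, at 100.7, 45.6 and 88.9 CPM against 0.339, 0.101 and 2.09 CPM. FAS, BTG2 and PLK3 did not pass the test, with log2 differences of 0.05, 1.12 and 0.59. TNFRSF10B and PHLDA3 lie in stretches of neighbouring genes that leaned to OCI-AML3 (chr8:232137-38468834, median 1.07, and chr1:169463909-248849517, median 0.83). CDKN1A and BBC3 lie outside the stretches, which are described for chromosomes below. The part of such neighbourhoods in the values of the list was not tested.

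**Figure D2:**
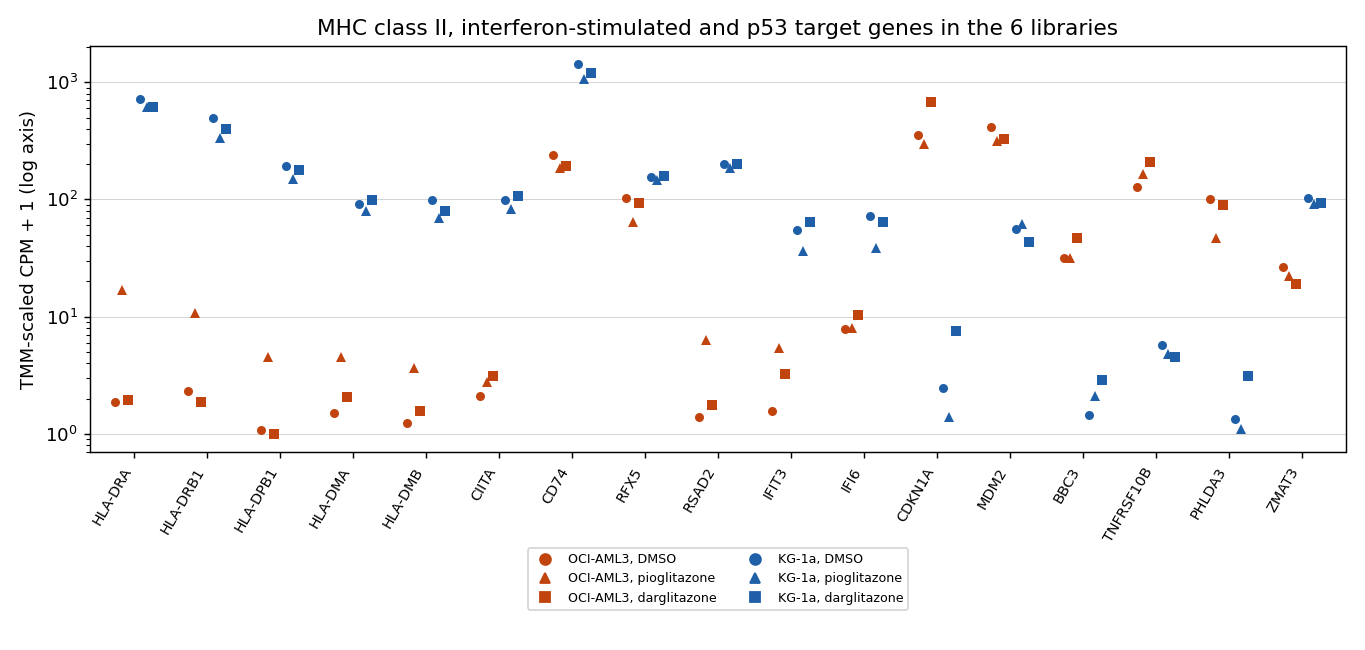
Levels of 17 MHC class II, interferon-stimulated and p53 target genes in the 6 libraries, as TMM-scaled CPM plus 1 on a log axis; symbols and colours mark line and treatment as named in the key. HLA-DRA to IFI6 and ZMAT3 lie higher in KG-1a and CDKN1A to PHLDA3 higher in OCI-AML3; the triangles of OCI-AML3 pioglitazone, the shallowest library, lie above the other OCI-AML3 points for HLA-DRA, HLA-DRB1, RSAD2 and IFIT3.

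Genes of G2 and mitosis were higher in OCI-AML3, most under DMSO. Of 25, 18 were higher in OCI-AML3 and 0 in KG-1a by edgeR's test, with a median of 0.97. Without the DMSO library of OCI-AML3 the count was 14 and the median 0.60, and without that of KG-1a they were 13 and 0.76. All 25 had their highest OCI-AML3 level in the DMSO library, as did 15 of 16 primary granule genes (93.8%), against 34.3% of all genes tested. The median log2 ratio of the 25 was 1.70 with DMSO, 0.33 with pioglitazone and 0.67 with darglitazone. CENPF, a kinetochore protein, stood at 489, 322 and 271 CPM in OCI-AML3 and at 90.4, 101.3 and 77.5 CPM in KG-1a. MAD2L1, a spindle checkpoint protein, stood at 114, 89.5 and 66.5 CPM against 20.2, 16.2 and 15.5 CPM. UBE2C, the ubiquitin-conjugating enzyme of the anaphase-promoting complex, was the exception in size. It stood at 99.3, 43.0 and 49.1 CPM in OCI-AML3 and at 0.453, 0.202 and 3.98 CPM in KG-1a, a log2 difference of 5.79 ± 0.68 (SE, adjusted p = 0.000214). In MOLM-14 and MV4-11 it stood at 63.8 to 94.8 CPM, and CDC20 and CCNB1, other mitotic genes, were at 84.7 to 117 and 62.2 to 85.9 CPM in KG-1a. How far the chromosome stretches described below enter the values of this list was not tested.

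Surface receptors differed between the lines in both directions. Over all genes tested, 26.5% were higher in OCI-AML3 and 25% in KG-1a. Of 25 receptor tyrosine kinases, 13 were higher in KG-1a and 8 in OCI-AML3, with a median of -1.84. FGFR1 (chr8:38400215-38468834, minus strand), a fibroblast growth factor receptor, stood at 159, 164 and 174 CPM in KG-1a and at 7.49, 17.6 and 24.2 CPM in OCI-AML3 (log2 difference -3.48 ± 0.38, SE, adjusted p = 4.63e-05). Gene counts do not separate the fused from the whole gene. TIE1, a receptor of endothelial cells, stood at 68.6, 59.7 and 55.7 CPM against 0.254, 0 and 0.713 CPM. IGF1R, the insulin-like growth factor receptor, stood at 19.4, 27.2 and 27.1 CPM in OCI-AML3 against 0.566, 0.907 and 1.05 CPM. Of 32 cytokine and chemokine receptors, 15 were higher in OCI-AML3 and 8 in KG-1a, with a median of 0.73. CCR1, a receptor of inflammatory chemokines, stood at 82.5, 71.1 and 104 CPM in OCI-AML3 against 1.58, 2.72 and 2.93 CPM, and IL2RG, the shared chain of interleukin receptors, at 162, 177 and 163 CPM in KG-1a against 2.58, 6.14 and 3.66 CPM.

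Of 30 integrins and other adhesion molecules, 18 were higher in KG-1a and 6 in OCI-AML3, with a median of -1.31. ICAM3, a ligand of leukocyte integrins, stood at 463, 394 and 466 CPM in KG-1a and at 4.53, 7.90 and 5.13 CPM in OCI-AML3. Among 21 surface antigens of this leukaemia, 9 were higher in KG-1a and 8 in OCI-AML3, with a median of -0.35. ANPEP, the aminopeptidase CD13, stood at 139, 158 and 159 CPM in KG-1a against 0.0299, 3.51 and 0 CPM, and CD96 at 202, 281 and 217 CPM against 0.135, 5.26 and 0.142 CPM. ABCB1, the drug efflux pump also called MDR1, stood at 2.60, 1.51 and 6.07 CPM in KG-1a and at 0 in all 3 OCI-AML3 libraries, at least 84.5-fold higher. Of 10 ABC transporters tested, 5 were higher in OCI-AML3 (3 without KG-1a darglitazone) and 4 in KG-1a.

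Feedback genes of RAS-MAPK signalling were 9 of 17 higher in OCI-AML3 and 2 in KG-1a, with a median of 1.20. Without the OCI-AML3 pioglitazone and KG-1a darglitazone libraries the counts were 5 and 1. SPRY2, a feedback inhibitor, stood at 22.01, 20.2 and 33.0 CPM in OCI-AML3 against 6.68, 5.64 and 7.96 CPM. DUSP6, the ERK phosphatase, went the other way at 39.4, 37.7 and 117 CPM against 138, 118 and 129 CPM, and its call (adjusted p = 0.0161) was lost in 5 of the alternatives. In the BCL2 family 7 of 16 genes were higher in OCI-AML3 and 3 in KG-1a, against 26.5% and 25% of all genes tested. Among those higher in OCI-AML3 was BAX, at 92.3, 79.0 and 76.9 CPM against 24.0, 26.9 and 28.7 CPM. Cyclin-dependent kinase inhibitors were split, 2 of 6 higher in each line, beside the same shares over all genes. CDKN2A was expressed in both, at 69.0, 52.9 and 64.5 CPM in KG-1a and 33.9, 18.4 and 25.1 CPM in OCI-AML3.

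Of 30 genes that are recurrently mutated in this leukaemia, 12 were higher in OCI-AML3 and 5 in KG-1a, with a median of 0.26. The shares over all genes tested were 26.5% and 25%. NPM1 differed little, at 1539, 1951 and 1308 CPM in OCI-AML3 and 1189, 1199 and 1014 CPM in KG-1a (log2 difference 0.49 ± 0.12, SE, adjusted p = 0.00346). STAG2, a cohesin subunit on the X chromosome, stood at 179, 131 and 119 CPM in OCI-AML3 and at 6.45, 10.6 and 13.0 CPM in KG-1a (log2 difference 3.88 ± 0.23, SE, adjusted p = 1.3e-08). In MOLM-14 and MV4-11 it stood at 108 to 126 CPM. Of 17 thiazolidinedione targets and partners of the PPAR receptors, 6 were higher in OCI-AML3 and 5 in KG-1a, with a median of 0. These counts also stand beside shares of 26.5% and 25% over all genes tested. RXRA, the partner of PPAR receptors on DNA, stood at 121, 96.2 and 89.0 CPM in KG-1a and at 25.2, 20.2 and 28.4 CPM in OCI-AML3. PPARD stood at 10.48, 19.3 and 19.1 CPM in OCI-AML3 against 5.21, 3.42 and 1.05 CPM.

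**Figure D3:**
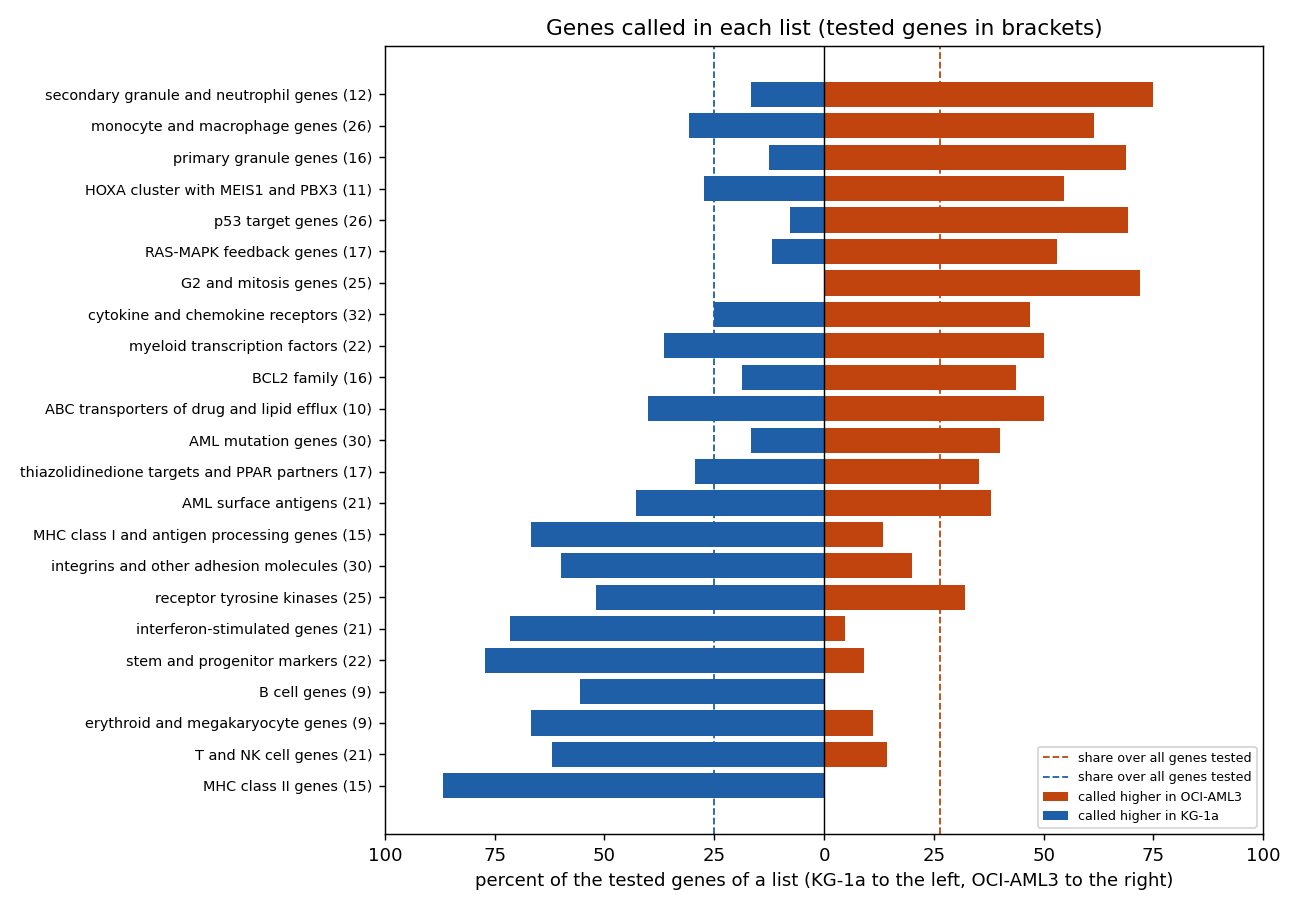
Share of the tested genes of each list with at least 9 tested genes that were called higher in OCI-AML3 (orange, right) or in KG-1a (blue, left), with the shares over all 15424 genes as dashed lines. MHC class II (13 of 15 higher in KG-1a) is at the bottom and the secondary granule list (9 of 12 higher in OCI-AML3) at the top, since lists are ordered by their median log2 difference.

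The largest differences were between a gene that was on in 1 line and close to 0 in the other. A gene was taken as on where all 3 libraries of a line reached 20 CPM and as off where none passed 3 counts. A count of 3 was worth 0.047, 2.738 and 0.148 CPM in the OCI-AML3 libraries and 0.344, 0.229 and 0.629 CPM in those of KG-1a. Off therefore did not mean the same level in both lines, and the counts of such genes are not compared. Of all 57865 genes summed, 34 were on in OCI-AML3 alone, all of them protein-coding, and 46 in KG-1a alone, of which 43 were protein-coding. The 8 with the largest differences in favour of OCI-AML3 were PRSS21, CLEC2A, CT45A3, NDNF, CT45A5, TVP23C-CDRT4, TEAD4 and ALX1. PRSS21, a testis serine protease, stood at 66.0, 55.3 and 58.9 CPM in OCI-AML3 and was at 0 in KG-1a, at least 504-fold higher. CT45A3 and CT45A5 are near-identical cancer-testis genes on the X chromosome, at least 428-fold and 347-fold higher, with an uncertain split of reads. TEAD4, a transcription factor of the Hippo pathway, stood at 35.1, 40.4 and 32.9 CPM and was at least 272-fold higher. The 8 in favour of KG-1a were DDAH1, SLC8A3, GALNT14, SLC12A7, FZD6, TRAT1, H2BC9 and HPGDS. DDAH1, an enzyme that breaks down methylated arginine, stood at 52.7, 55.2 and 47.1 CPM, at least 1560-fold higher. TRAT1, an adaptor of the T cell receptor, stood at 28.1, 28.5 and 20.7 CPM, at least 795-fold higher. HPGDS, a prostaglandin D synthase of mast cells and megakaryocytes, stood at 113, 159.8 and 97.6 CPM in KG-1a against 0, 1.75 and 0 CPM. Each bound was taken against 3 counts over the libraries of the lower line and covers counting error only. Those 3 counts were worth 0.0337 CPM in OCI-AML3 and 0.127 CPM in KG-1a. At equal levels the bounds in favour of KG-1a are therefore larger through depth alone.

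Line differences were grouped along chromosomes. Over 12849 protein-coding genes tested the median log2 difference was 0.03, with 29% higher in OCI-AML3 and 26.6% in KG-1a. On chromosome 4 the median was 0.92, and 253 of 434 genes (58.3%) were higher in OCI-AML3 against 49 (11.3%) in KG-1a. On chromosome 5 the median was 0.56, with 266 and 97 of 550. Chromosome 19 had the lowest median, -0.33, with 163 and 352 of 1029. Stretches were built from windows of 41 neighbouring genes whose median was 0.7 or more in size: windows of the same direction that touched were joined, and each stretch spans all genes of its windows. This gave 19 stretches of at least 60 genes with 2755 genes in all, and parts of a stretch, or its median, can lie under 0.7. These are descriptions with no test, and neighbouring genes are not independent.

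The stretch on chromosome 4 (chr4:672436-185370185) covered nearly the whole chromosome, with 421 genes and a median of 0.94. Under DMSO, pioglitazone and darglitazone its median log2 ratio was 1.09, 0.85 and 0.90, so it was present in each treatment. Against the mean of MOLM-14 and MV4-11 its genes had a median log2 ratio of -0.62 in KG-1a and 0.22 in OCI-AML3. Similar stretches with KG-1a low against those lines lay on chromosome 5 (chr5:86617904-171300015, 267 genes, median 0.85, KG-1a -0.61), on chromosome 7 (chr7:94524204-142667718, 225 genes, 0.80, KG-1a -0.66) and on chromosome 9 (chr9:37120539-127445372, 238 genes, 0.97, KG-1a -0.70). On chromosome 17 a pair of them (chr17:2059839-7404137 and chr17:7435443-21214624) had medians of 0.77 and 0.87, with KG-1a at -0.81 and -0.74. On chromosome 8 the stretch chr8:232137-38468834 had 120 genes, a median of 1.07 and KG-1a at -1.12, and its last gene was FGFR1, which itself was higher in KG-1a. The ends of a stretch are uncertain by about 20 genes.

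In other stretches it was OCI-AML3 that departed from MOLM-14 and MV4-11. On chromosome 1, chr1:169463909-248849517 had 314 genes and a median of 0.83, with OCI-AML3 at 0.66 and KG-1a at -0.09 against the other lines. At the other end of that chromosome, chr1:923928-11848079 had 112 genes and a median of -1.09, with OCI-AML3 at -0.87 and KG-1a at 0.08, and 81 of its genes were higher in KG-1a against 5 in OCI-AML3. On chromosome 6, chr6:291630-24495205 had 72 genes and a median of -1.10, with OCI-AML3 at -0.71. DNA copy number was not measured in the data used here.

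**Figure D4:**
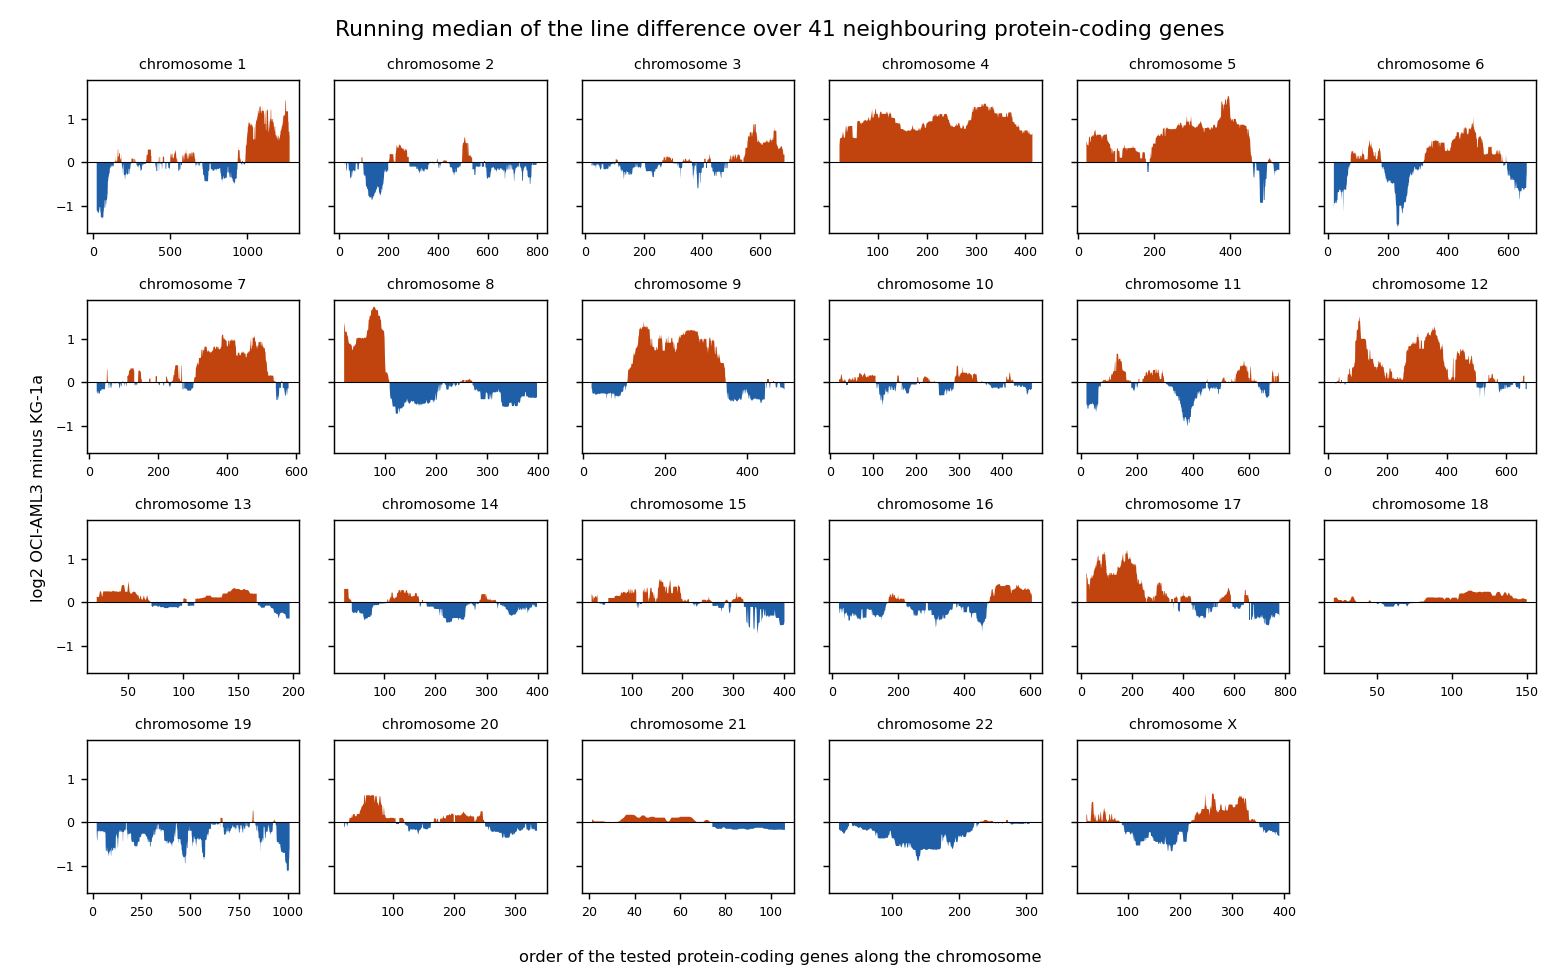
Running median of the log2 difference, OCI-AML3 minus KG-1a, over 41 neighbouring tested protein-coding genes, drawn in gene order along each chromosome; orange is higher in OCI-AML3 and blue higher in KG-1a. Chromosome 4 lies above 0 along its length, while chromosomes 1, 8 and 9 change sign within the chromosome.

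How many genes differed in drug response between the lines depended on the setting. The mean log2 response to both drugs against DMSO differed at an adjusted p under 0.05 for 2 genes of 15424 (0.013%) by edgeR, with 1012 genes at an unadjusted p under 0.05, and DESeq2 called 52 and limma-voom 4. With no low-count filter edgeR called 102. Leaving out the pioglitazone or the darglitazone library gave 30 and 66 for OCI-AML3 and 4 and 11 for KG-1a, and 149 were called without both pioglitazone libraries. ITGA6 was one of the 2. It rose from 0.389 CPM in OCI-AML3 with DMSO to 7.90 and 5.94 CPM with the drugs while KG-1a stayed between 213 and 245 CPM, and the responses differed by 4.07 ± 0.46 on the log2 scale (SE, edgeR adjusted p = 0.0202). KG-1a genes stood at 2.099% of their level in the pioglitazone library of OCI-AML3 and at 0.13% in the darglitazone library. Without the pioglitazone library of OCI-AML3 the difference was 3.97 (adjusted p = 0.00449). Without the pioglitazone library of KG-1a it was 4.17 (adjusted p = 0.0539), and limma-voom gave an adjusted p of 0.0748.

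The other gene was AL139099.4, a noncoding entry (chr14:49586579-49586878) that covers RN7SL1, the RNA of the signal recognition particle. It stood at 643, 92.3 and 209.6 CPM in KG-1a and at 10.9, 50.01 and 103 CPM in OCI-AML3, so that the lines moved in opposite directions, and the responses differed by 4.89 ± 0.43 (SE, edgeR adjusted p = 0.00311). The remaining genes named by the rule did not pass the threshold and are given as values. AXL, a receptor kinase, stood at 15.8, 1.11 and 1.47 CPM in KG-1a and at 18.0, 16.7 and 19.6 CPM in OCI-AML3 (edgeR adjusted p = 0.165). KLF15 stood at 352, 93.4 and 260 CPM against 8.16, 43.0 and 48.7 CPM (edgeR adjusted p = 0.0948), and CPXM1 at 166, 161 and 174 CPM against 0.164, 0.877 and 2.19 CPM (edgeR adjusted p = 0.0948). CAB39, an activator of the kinase LKB1, stood at 591, 90.2 and 91.1 CPM against 61.7, 111 and 53.2 CPM (edgeR adjusted p = 0.156). DLGAP5 and NEK2, both mitotic genes, were highest in OCI-AML3 with DMSO. DLGAP5 stood at 87.0, 16.7 and 24.99 CPM there and at 21.4, 28.3 and 21.98 CPM in KG-1a, and NEK2 at 55.5, 18.4 and 24.5 CPM against 9.84, 16.2 and 16.5 CPM. With 1 library per line and treatment, none of these responses has a replicate.

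**Figure D5:**
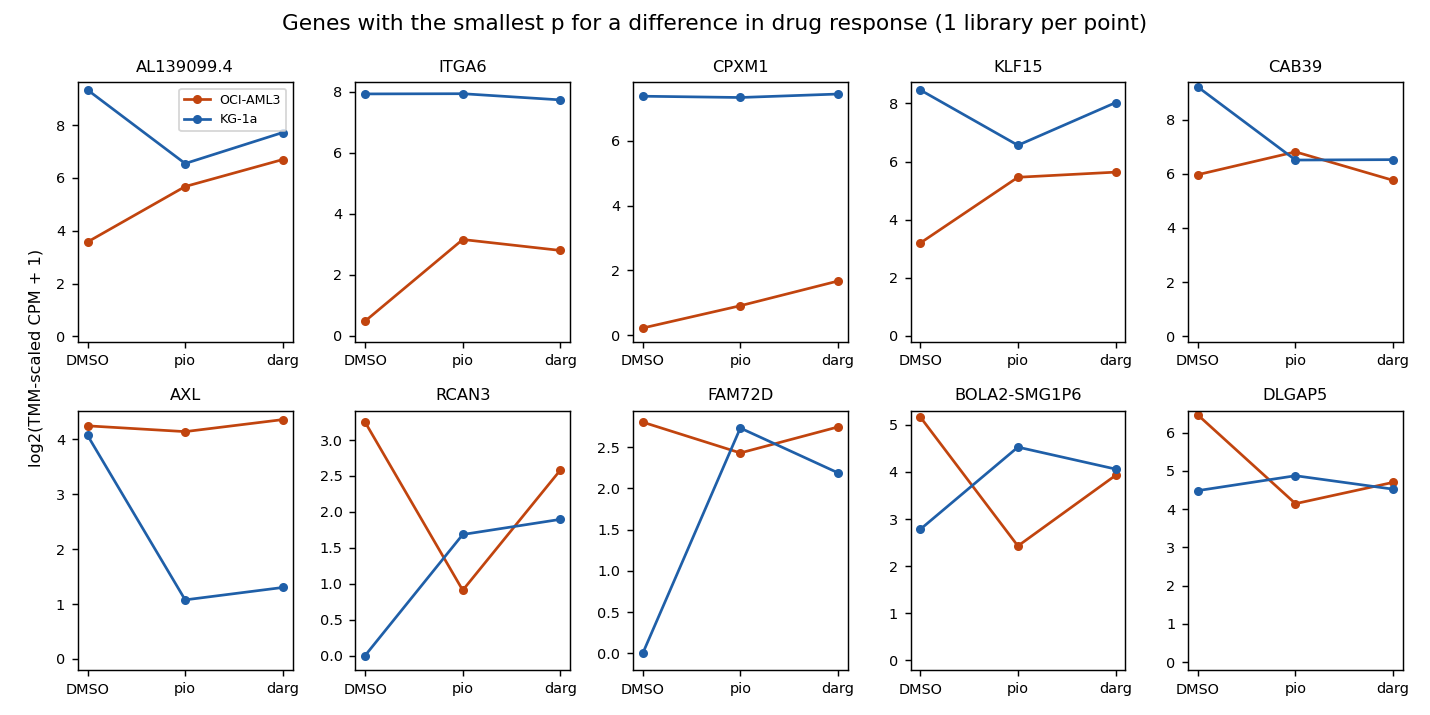
Levels of 10 genes as log2 of TMM-scaled CPM plus 1 under DMSO, pioglitazone (pio) and darglitazone (darg), 1 library per point, orange for OCI-AML3 and blue for KG-1a. AL139099.4 and ITGA6 passed the threshold; in KG-1a AL139099.4 goes from 643 to 92.3 and 209.6 CPM while in OCI-AML3 it goes from 10.9 to 50.01 and 103 CPM.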

How the data were processed

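RNA of 12 cultures was sequenced from total RNA libraries after removal of ribosomal RNA, 1 per line and treatment, per the labels' protocols. The authors deposited a table of estimated counts per transcript, most of which are not whole. The submitters' processing notes name fastp, FastQC, STAR, featureCounts, DESeq2 and GRCh38, and they do not say which tool made the estimates. Of 203027 transcripts, 99.958% were matched to GENCODE 29. Their counts were summed to 57865 genes and rounded. Genes were kept by edgeR's filterByExpr with the line as group (minimum count 10, minimum total 15). edgeR 4.0.16 in R 4.3.3 fitted line and treatment over all 12 libraries (TMM scaling, robust quasi-likelihood, 6 residual degrees of freedom). Drug response differences came from a fit with line by drug terms (3 residual degrees of freedom). Benjamini-Hochberg adjustment ran over 15424 genes with a threshold of 0.05. The code was tested on simulated data. Alternatives were another filter, scaling, test (DESeq2 1.42.0, limma 3.58.1), gene universe and set of libraries.

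Reads of another line were gauged from genes with at least 30 CPM in 1 line and near absence from the rest. Promoter letters came from RefSeq (GRCh38.p14). The members, lists and rules were chosen with earlier results of these data known. Named by rule were ORM1, CA2, ITGA6, a set list of 12 leukaemia genes, the 8 protein-coding genes with the largest difference in each direction at 20 CPM or more, up to 4 called genes per list at 5 CPM or more, and the leading genes of the drug response difference. Other list members, the stretches and the letters CTGATGATG were picked after their values were seen. Some of the genes so chosen are not reported here.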

Additional observations from a re-analysis of the deposited data

Results flagged for a closer look

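The test of the difference in drug response between OCI-AML3 and KG-1a singled out 2 genes by edgeR. The response of AL139099.4, the entry over RN7SL1, differed by 4.89 ± 0.43 on the log2 scale (SE, adjusted p = 0.00311). That of ITGA6 differed by 4.07 ± 0.46 (SE, adjusted p = 0.0202). Each rests on 1 library per line and treatment. The FP671120.3 share moved with pioglitazone in both lines, at 6.174% and 23.535%, and its part in these values was not tested.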

How the results depend on the processing

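The count of genes higher in OCI-AML3 ranged from 3076 to 4401 and that higher in KG-1a from 3129 to 4213 over the alternatives, within 1.5 times of the reported counts. Of 2016 line differences of named genes under alternatives, 1908 kept their direction and side of the threshold, 45 lost the call, 13 gained it, 3 reversed and 47 values with no test moved. Of 416 list medians, 54 moved by more than the spread between libraries. The count of drug response differences was 2 and depended on the setting. It was 102 with no filter, 52 with DESeq2, 4 with limma-voom, 4 to 66 when 1 drug library was left out in turn and 149 without both pioglitazone libraries, with these library settings added after seeing the data. The cause was not tested. The line differences of DLGAP5 (0.77) and BOLA2-SMG1P6 (0.51), neither of them called, reversed when 1 library was left out: DLGAP5 ranged from -0.02 (without OCI-AML3 replicate 1, the DMSO library) to 1.13, and BOLA2-SMG1P6 from -0.37 (without OCI-AML3 replicate 1) to 1.05, with -0.15 without KG-1a replicate 1, its DMSO library. Without the OCI-AML3 pioglitazone and KG-1a darglitazone libraries, the genes higher in OCI-AML3 and in KG-1a were 2 and 15 of the stem list, 12 and 2 of primary granules, 16 and 8 of monocytes, 1 and 12 of MHC class II, 17 and 1 of p53 targets, 1 and 13 of interferon-stimulated genes, and 20 and 0 of mitosis (edgeR). Depth limits low values most in OCI-AML3 pioglitazone, where 3 counts are 2.738 CPM.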
